A study of Mus musculus with 20 samples.

Results

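Fertilization in the mouse begins when a sperm binds and fuses with the egg membrane, and 5 genes of that membrane were followed here through oocyte maturation and the first cleavage. They are the tetraspanin genes Cd9, Cd81, Cd63 and Cd151 and the sperm receptor gene Folr4, now called Izumo1r, whose product is Juno. They were chosen by name, with earlier results of these data known, and each matched 1 locus among the 23309 gene symbols of the deposited tables. Libraries came from 2 experiments on the ICR strain. In the Btg4 experiment, oocytes or embryos labelled Btg4-/- or wild type were taken at 4 stages: the germinal vesicle (GV) oocyte before maturation, the ovulated egg in second meiotic metaphase (MII), zygotes, and embryos of 2 cells. A pair of replicate libraries were made for each of these 8 groups, which gives 16. The Erk experiment has 4 libraries, 1 each for Erk-/- and wild-type oocytes at GV and at MII. Per the labels, every library pooled 60 oocytes or embryos of females aged 21 to 23 days treated with the gonadotropins PMSG/hCG, and embryos followed mating. The protocol names wild-type and Btg4-/- females, so an embryo's genotype label is that of its mother as far as the labels go, and it does not mention the Erk-/- mice. The labels name neither the Btg4 allele, nor which Erk gene was deleted, nor a Cre driver, nor the genotype of the males.

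Values are FPKM as the authors deposited them, that is, sequenced fragments of a gene divided by the length of its transcript and by all mapped fragments of that library. They can be compared between genes per unit length, and within a library they are relative to all other transcripts. The labels do not describe how mRNA was purified. If that was by poly(A) tail, a rise or fall in FPKM can follow tail length as well as amount. By the deposited intervals, Btg4 experiment libraries held 1710000 to 3420000 fragments on genes and those of the Erk experiment 4500000 to 6130000. Summed FPKM ran from 299983 to 491035 in the former. Markers of the oocyte (Zp3, Gdf9, Mos and others, 13 in all) were measured in every library, with at most 1 of them at 0, and the 2-cell markers summed to 185 to 261 FPKM in the wild-type 2-cell libraries against 10.0 to 15.6 in those labelled Btg4-/-. Btg4 itself read 1980 and 1881 FPKM in labelled Btg4-/- GV oocytes and 1450 and 1673 in wild-type GV oocytes. It was lower than wild type under the Btg4-/- label at MII (172 and 191 against 415 and 406) and in zygotes (139 and 164 against 610 and 559) and higher at 2-cell (3514 and 3632 against 1147 and 964), so groups are called by their labels throughout. In the Erk experiment the ERK1 gene Mapk3 was at 52.3 FPKM in the labelled Erk-/- GV library against 333 in wild type, but at 34.3 against 25.7 at MII. Whether replicates came from separate animals is not stated, and the p-values cover only the spread among these libraries, which may be technical. In pooled libraries, fewer cells of a type and less RNA per cell cannot be told apart.

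Tetraspanins are small proteins that cross the membrane several times and gather partner proteins, integrins among them, into membrane domains. CD9 stands on the microvilli of the egg and is needed there for fusion with the sperm, and CD81 has an overlapping role in fertility. CD151 binds laminin-binding integrins, and CD63 is found mainly on late endosomes, lysosomes and exosomes. Juno is a member of the folate receptor family that is held in the membrane by a GPI lipid anchor, binds IZUMO1 on the sperm head and is shed from the zygote soon after fusion.

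In an oocyte without transcription, the 3′ end of an mRNA carries the elements through which its poly(A) tail is lengthened or removed, and these are therefore shown for the members. The sequences are parts of 3′ untranslated regions of GENCODE M21 transcripts (GRCm38), each 30 bases, 5′ to 3′. Capitals mark the poly(A) signal (AATAAA or ATTAAA) or the cytoplasmic polyadenylation element TTTTAAT.
Cd9, poly(A) signal: agacaatttgatacatAATAAAagattata
Cd9, polyadenylation element: ttctgtttgtctTTTTAATgctttattcat
Cd81, poly(A) signal: cttgaaacagtcatttAATAAAggaggaaa
Cd81, polyadenylation element: ttgctcacatctTTTTAATctttgttcctt
Cd63, poly(A) signal: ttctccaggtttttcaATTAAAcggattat
Cd151, poly(A) signal: tatgtaacaggtgctcAATAAAtgtaaatg
Folr4, poly(A) signal: ctatcatggtaccttcAATAAAaggctagg
The 3′ untranslated regions searched were 395 bases long in Cd9, 560 in Cd81, 82 in Cd63, 776 in Cd151 and 333 in Folr4, and the search was on the transcript strand. Cd9 and Cd81 each held 1 TTTTAAT, which began 274 and 163 bases before the transcript end. No member held TTTTAT, and Cd63, Cd151 and Folr4 held no TTTTAAT. In the last 150 bases, where 9975 tested genes could be searched, 20.0% of genes held TTTTAT, 7.62% TTTTAAT, 67.9% AATAAA and 24.6% ATTAAA. The TTTTAAT of Cd9 and that of Cd81 lie outside this window, so neither gene counts among the 7.62%. The 3′ untranslated region of Cd63 is too short for that window. TTTTAAT and TTTTAT can share letters at their ends, as can AATAAA and ATTAAA, and 25.6% of genes held at least 1 of the former pair. A match describes letters only.

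Before maturation, at GV, none of the 5 genes passed the test between genotypes. With limma over 12311 tested genes, 0 of 5 were called (0 also at an unadjusted p under 0.05), against 7.9% of all genes in either direction, 1.45% higher and 6.46% lower. At MII, Cd9, Cd151, Folr4 and Cd63 were higher in the labelled Btg4-/- libraries, 4 of 5, where 29.1% of all genes were called higher and 52.4% in either direction. In the zygote Cd9, Cd151 and Cd63 were higher, 3 of 5, against 24.4% of all genes called higher. At the 2-cell stage Cd9 and Cd151 were higher and Cd63 and Folr4 lower, against 22.6% of genes called higher and 26.4% lower, 49% in all. The median log2 difference of the 5 genes was -0.33, 1.23, 1.02 and -0.04 at the 4 stages, and that of all tested genes -0.12, 0.09, 0.0065 and -0.05. These calls use log2(FPKM + 1) and an adjusted p under 0.05 (Benjamini-Hochberg over all genes).

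**Figure D1:**
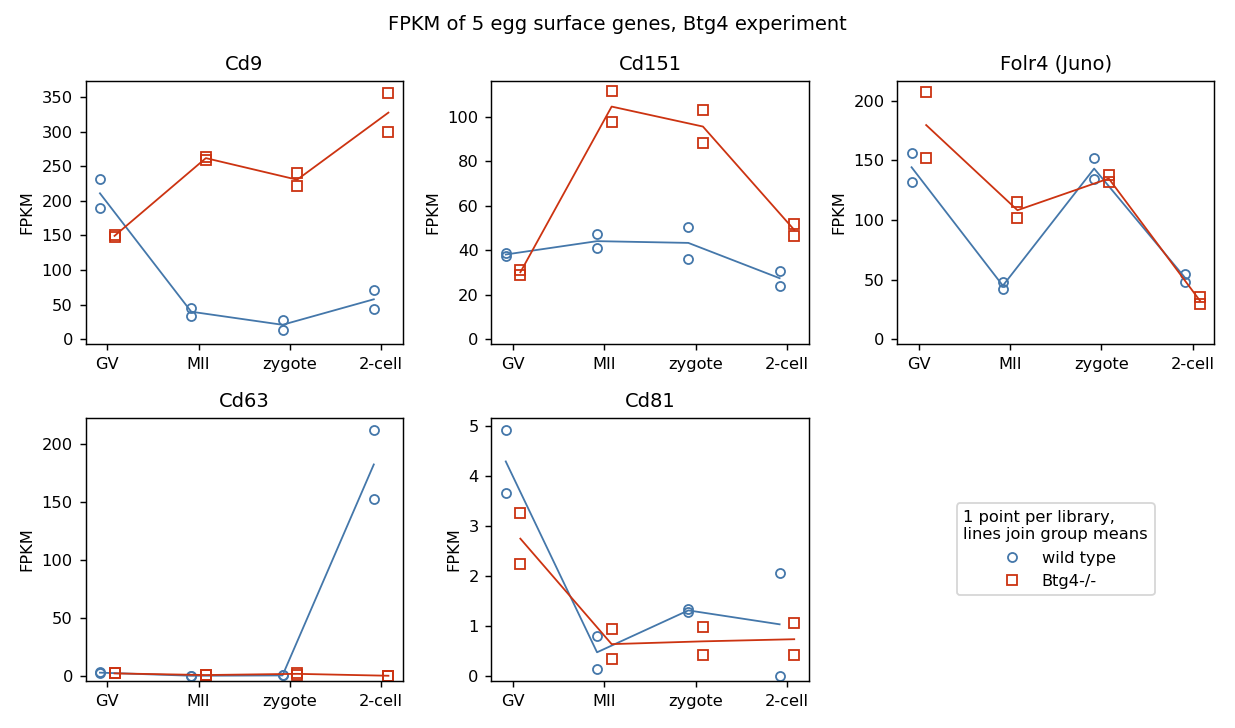
FPKM (vertical axis, linear, 1 scale per gene) of the 5 genes at 4 stages; each point is 1 library, circles wild type and squares labelled Btg4-/-, and lines join group means. Cd9 falls from 211 to 39.6 FPKM on average in wild type and is at 148 or more in every labelled Btg4-/- library; Cd63 reaches 153 and 212 FPKM in the wild-type 2-cell libraries.

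Cd9 (chromosome 6, 125410283 to 125444773 in the files' mm9 coordinates) was among the abundant mRNAs of the GV oocyte, above 96.7% of tested genes in wild type. It stood at 232 and 191 FPKM in the wild-type GV libraries, and at 151 and 148 in those labelled Btg4-/-. The groups did not overlap, but the difference missed the threshold (log2 difference -0.49, adjusted p = 0.377, 95% interval -1.12 to 0.14). At MII wild-type libraries held 45.2 and 34.1 FPKM and labelled Btg4-/- libraries 260 and 264. That is a 6.62-fold higher mean in the labelled Btg4-/- libraries (log2 difference 2.71, SE 0.29, adjusted p = 5.26e-06), with no overlap. In zygotes the values were 28.1 and 13.2 FPKM in wild type against 240 and 222, an 11.2-fold difference (log2 3.51, SE 0.29, adjusted p = 7.53e-07) that exceeded 98.8% of tested genes in size. The zygote ratio rests on 2 unequal wild-type libraries, being 17.4 without wild-type zygote library 1 and 8.22 without library 2. At 2-cell they were 43.6 and 71.5 in wild type against 357 and 299 (log2 2.53, SE 0.29, adjusted p = 1.29e-05).

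The stage course of Cd9 differed between genotypes. In wild type it fell from GV to MII (log2 change -2.39, adjusted p = 1.49e-05), fell further from MII to zygote (-0.98, adjusted p = 0.023) and rose from zygote to 2-cell (1.48, adjusted p = 0.000734). In the labelled Btg4-/- libraries it rose from GV to MII (0.81, adjusted p = 0.0373), and neither later step passed (-0.18, adjusted p = 0.761, and 0.50, adjusted p = 0.181). The genotype difference in the GV to MII step was 3.20 (SE 0.41, adjusted p = 4.61e-05). It did not pass for the later steps (0.80, adjusted p = 0.249, and -0.98, adjusted p = 0.0652). In the fit on the compared groups alone the wild-type rise to 2-cell missed (adjusted p = 0.0795). The wild-type fall from MII to zygote missed in its own such fit (adjusted p = 0.235) and without a filter (adjusted p = 0.0505). The wild-type fall from MII to zygote lost its call without wild-type MII library 1 (adjusted p = 0.146) or wild-type zygote library 2 (-0.47, adjusted p = 0.257). The rise in the labelled Btg4-/- libraries lost its call when any 1 of the 4 libraries was left out (adjusted p = 0.112 to 0.13) and with median-of-ratios scaling (0.40, adjusted p = 0.309). Genotype comparisons and stage steps use the same libraries, so they are not independent of each other. In 13 of 20 libraries the deposited Cd9 value lies above the upper end of its own interval. These include every labelled Btg4-/- library and none of the wild-type MII, zygote and 2-cell libraries of the Btg4 experiment. Over the 20 libraries the value is 1.06 to 1.2 times the interval's midpoint. With midpoints in place of values every Cd9 genotype call at MII, zygote and 2-cell held.

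**Figure D2:**
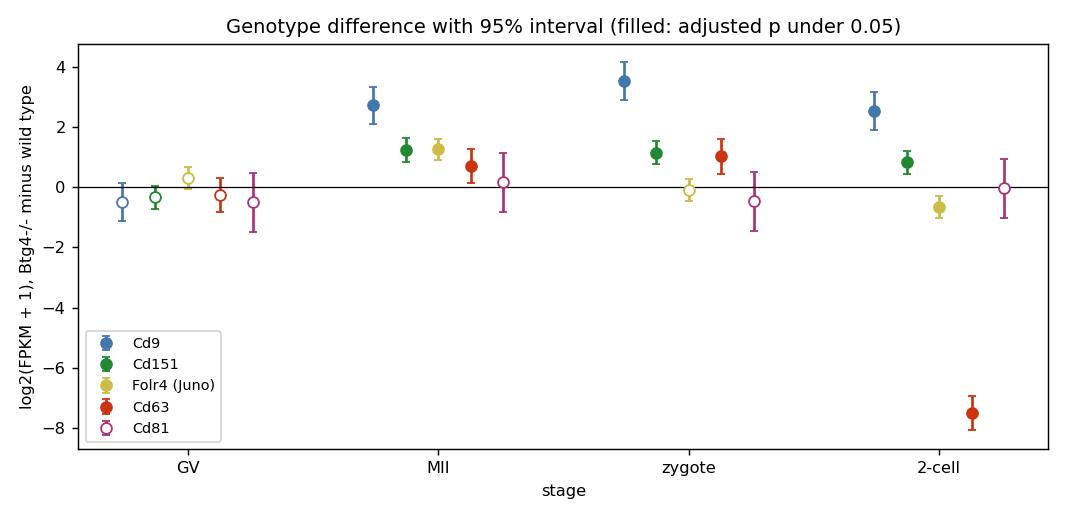
Difference in log2(FPKM + 1), labelled Btg4-/- minus wild type (vertical axis), at each stage for the 5 genes; bars are 95% intervals from limma and filled points have an adjusted p under 0.05. No point is filled at GV, Cd9 lies at 2.71, 3.51 and 2.53 at the later stages, and Cd63 at -7.50 at 2-cell.

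Folr4 (chromosome 9, 14690257 to 14708395) moved differently from Cd9 after MII. At GV it was at 156 and 132 FPKM in wild type and 208 and 152 in the labelled Btg4-/- libraries, with overlapping groups (log2 difference 0.30, adjusted p = 0.332). At MII it was at 42.0 and 47.6 in wild type against 115 and 101, a 2.41-fold higher mean in the labelled Btg4-/- libraries (log2 1.25, SE 0.17, adjusted p = 3.41e-05). In the zygote the groups overlapped again, at 152 and 134 FPKM in wild type and 138 and 132 in the labelled Btg4-/- libraries (log2 -0.08, 95% interval -0.44 to 0.28, adjusted p = 0.733). At 2-cell the labelled Btg4-/- libraries were lower, with 29.2 and 34.9 FPKM where wild type had 47.7 and 54.4 (log2 -0.66, SE 0.17, adjusted p = 0.00544).

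In wild type, the FPKM of this sperm receptor gene fell from GV to MII (log2 change -1.66, adjusted p = 2.65e-06). It rose 3.19-fold from MII to zygote (1.65, adjusted p = 2.43e-05) and fell again to 2-cell (-1.47, adjusted p = 7.63e-06). Whether the amount of mRNA or the length of its tail changed was not tested. The rise at fertilization was larger in size than that of 96.3% of tested genes, and 20.5% of genes were called higher in that step. In the labelled Btg4-/- libraries Folr4 fell from GV to MII by less (-0.71, adjusted p = 0.00331), did not pass from MII to zygote (0.32, adjusted p = 0.235) and fell to 2-cell (-2.04, adjusted p = 7.22e-07). The genotype difference passed in the GV to MII step (0.95, adjusted p = 0.00558) and in the MII to zygote step (-1.34, SE 0.23, adjusted p = 0.00322), and missed in the zygote to 2-cell step (-0.57, adjusted p = 0.0612). With quantile normalization the GV to MII genotype difference was 0.50 (adjusted p = 0.0611) and Folr4 was lower in labelled Btg4-/- zygotes (-0.42, adjusted p = 0.0279). The 2-cell genotype call ended without labelled Btg4-/- 2-cell library 1 (-0.53, adjusted p = 0.0516) and in the fit on the 2-cell libraries alone (adjusted p = 0.0529), and the labelled Btg4-/- fall from GV to MII ended in the fit on its groups alone (adjusted p = 0.0653).

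Cd151 (chromosome 7, 148653260 to 148657380) rose from GV to MII in the labelled Btg4-/- libraries. At GV it was at 37.6 and 38.5 FPKM in wild type and 31.2 and 28.9 in the labelled Btg4-/- libraries (log2 difference -0.33, adjusted p = 0.317). At MII it was at 47.3 and 40.8 in wild type against 112 and 97.5 (2.37-fold, log2 1.23, SE 0.18, adjusted p = 7.14e-05). In the zygote it was at 50.4 and 36.1 against 103 and 88.1 (log2 1.14, SE 0.18, adjusted p = 0.000172). At 2-cell it was at 30.7 and 24.1 against 51.9 and 46.4 FPKM (log2 0.83, SE 0.18, adjusted p = 0.00187). The groups did not overlap at any of the 4 stages. The 2-cell call ended when each library was rescaled to the same summed FPKM (0.28, adjusted p = 0.205).

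By the ratio of the highest to the lowest stage mean, Cd151 varied least of the 5 genes in wild type. It did not pass from GV to MII (log2 change 0.20, adjusted p = 0.372) or from MII to zygote (-0.04, adjusted p = 0.931), and it fell to 2-cell (-0.63, adjusted p = 0.00837). In the labelled Btg4-/- libraries it rose 3.48-fold from GV to MII (1.76, SE 0.18, adjusted p = 3.57e-06), did not pass to the zygote (-0.13, adjusted p = 0.717) and fell to 2-cell (-0.94, adjusted p = 0.000823). The genotype difference in the GV to MII step was 1.56 (SE 0.25, adjusted p = 0.000285), and it did not pass in the later steps (-0.09, adjusted p = 0.893, and -0.31, adjusted p = 0.329). Without wild-type zygote library 1 or wild-type 2-cell library 2 the wild-type fall to 2-cell lost its call (adjusted p = 0.106 and 0.074), as it did with median-of-ratios scaling (-0.44, adjusted p = 0.0607). That fall also missed in the fit on the compared groups alone (adjusted p = 0.108). It missed with each library rescaled to the same summed FPKM (-0.43, adjusted p = 0.0515). With quantile normalization, Cd151 passed as higher at MII than at GV in wild type (0.53, adjusted p = 0.0356).

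Cd63 (chromosome 10, 128345974 to 128349874) was scarce in oocytes and zygotes of both genotypes and abundant in wild-type 2-cell embryos. At GV it was at 2.42 and 2.95 FPKM in wild type and 1.963 and 2.12 in the labelled Btg4-/- libraries (log2 difference -0.27, adjusted p = 0.65), each resting on 5.4 to 6.9 implied fragments. Both wild-type MII libraries list it at 0, and the labelled Btg4-/- MII libraries hold 0.64 and 0.59 FPKM. In wild-type zygotes it was at 0.271 and 0.266 FPKM and in labelled Btg4-/- zygotes at 2.26 and 1.03. At 2-cell the wild-type libraries held 153 and 212 FPKM, above 98.1% of tested genes on average, while both labelled Btg4-/- libraries list it at 0 (adjusted p = 6.77e-10). The wild-type rise from zygote to 2-cell had a log2 change of 7.16 (SE 0.26, adjusted p = 6.57e-10). In the labelled Btg4-/- libraries Cd63 fell in that step (-1.36, adjusted p = 0.000953), from 9.9 and 2.2 implied fragments in the zygote libraries. The size of this fall near the floor ran from -4.03 to -0.404 over the alternatives. The genotype difference in the step was -8.52 (SE 0.37, adjusted p = 7.13e-09), larger in size than that of 99.98% of tested genes. It passed in all 18 alternatives run, from -12.96 to -5.54.

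The calls of Cd63 at MII and in the zygote rest on at most 9.9 implied fragments per library. At MII the difference (0.69, adjusted p = 0.0414) lost its call when any 1 of the 4 libraries was left out (adjusted p = 0.105 to 0.126). In the zygote the difference (1.02, adjusted p = 0.00605) lost it without labelled Btg4-/- zygote library 1 (0.68, adjusted p = 0.0814), and with a pseudocount of 5 both differences missed (adjusted p = 0.383 and 0.0837). From GV to MII Cd63 fell in wild type (-1.88, adjusted p = 5.15e-05) and in the labelled Btg4-/- libraries (-0.91, adjusted p = 0.0119), and the genotype difference in this step missed (0.96, adjusted p = 0.0528). The latter fall lost its call without labelled Btg4-/- GV library 2 or MII library 2 (adjusted p = 0.0576 and 0.0551). The 13 granulosa and cumulus markers at 2-cell summed to 23.7 to 31.3 FPKM in wild type and 5.59 in both labelled Btg4-/- libraries. Of these, Nr5a2 was at 9.97 and 16.4 FPKM in wild type and 2.91 and 3.29 in the labelled Btg4-/- libraries. Amhr2 was at 11.3 and 11.8 in wild type and 0 in the labelled Btg4-/- libraries. Inha, Inhba, Foxl2 and Amh were at 0 in all 4 libraries. The part of granulosa and cumulus cells in the Cd63 difference was not tested.

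Cd81 (chromosome 7, 150238654 to 150253835) was low throughout, with its highest values at GV. At GV it was at 4.91 and 3.66 FPKM in wild type and 3.25 and 2.23 in the labelled Btg4-/- libraries (log2 difference -0.50, 95% interval -1.48 to 0.48, adjusted p = 0.617). At MII it was at 0.139 and 0.799 against 0.338 and 0.927 FPKM (adjusted p = 0.81), and in the zygote at 1.28 and 1.33 against 0.97 and 0.405 (adjusted p = 0.432). At 2-cell 1 wild-type library lists it at 0 and the other holds 2.06 FPKM, against 0.415 and 1.05 (adjusted p = 0.97). The 95% intervals of the genotype difference were -0.81 to 1.14 at MII, -1.45 to 0.51 in the zygote and -1.02 to 0.94 at 2-cell on the log2(FPKM + 1) scale. From GV to MII it fell in wild type (-1.87, adjusted p = 0.00334) and in the labelled Btg4-/- libraries (-1.21, adjusted p = 0.044), and the genotype difference in this step did not pass (0.67, adjusted p = 0.441). The latter fall lost its call when any 1 of its 4 libraries was left out (adjusted p = 0.0624 to 0.224).

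By step, 4 of 5 genes fell and 0 rose from GV to MII in wild type, where 28.5% of all genes were called lower and 53.7% in either direction. From MII to zygote 1 rose and 1 fell, against 20.5% higher and 8% lower. From zygote to 2-cell 2 rose and 2 fell, against 27.1% and 30.2% (57.4% in either direction). In the labelled Btg4-/- libraries 2 rose and 3 fell from GV to MII, against 27.3% and 18.1% of all genes (45.4% in either direction). From MII to zygote limma called 0 of 5 in these libraries (1 at an unadjusted p under 0.05, Cd63), against 15.7% of all genes in either direction, 10.3% higher and 5.38% lower. From zygote to 2-cell 0 rose and 3 fell, against 18.3% and 28.2% (46.5% in either direction). The genotype difference itself passed as higher for 3 of 5 genes in the GV to MII step, where 26.5% of all genes were called higher and 42.5% in either direction. It passed as lower for 1 in the MII to zygote step, against 7.25% of all genes lower and 4.95% higher. It passed as lower for 1 in the zygote to 2-cell step, against 25.9% lower and 22.2% higher (48% in either direction).

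The order of the 8 groups differed from gene to gene. For Cd9 the highest mean was in labelled Btg4-/- 2-cell embryos (328 ± 40.4 FPKM, SD, n = 2), followed by labelled Btg4-/- MII (262 ± 3.20) and zygote (231 ± 13.1), wild-type GV (211 ± 29.1), labelled Btg4-/- GV (149 ± 1.98), and wild-type 2-cell (57.6 ± 19.7), MII (39.6 ± 7.84) and zygote (20.7 ± 10.5). Of these neighbours, labelled Btg4-/- zygote and wild-type GV overlapped, as did wild-type 2-cell and MII. For Folr4 the highest 4 groups, labelled Btg4-/- GV (180 ± 39.7), wild-type GV (144 ± 17.0), wild-type zygote (143 ± 12.8) and labelled Btg4-/- zygote (135 ± 4.60), each overlapped the next. Labelled Btg4-/- MII (108 ± 9.69), wild-type 2-cell (51.1 ± 4.76), wild-type MII (44.8 ± 4.0) and labelled Btg4-/- 2-cell (32.1 ± 4.01) followed without overlap. For Cd151, labelled Btg4-/- MII (105 ± 10.1) and zygote (95.6 ± 10.6) overlapped each other and stood apart from all others. The next 4 groups, from labelled Btg4-/- 2-cell (49.1 ± 3.90) through wild-type MII (44.0 ± 4.64) and zygote (43.3 ± 10.1) to wild-type GV (38.0 ± 0.673), each overlapped the next. Labelled Btg4-/- GV (30.03 ± 1.63) and wild-type 2-cell (27.4 ± 4.68) came last and overlapped. For Cd63 wild-type 2-cell (182 ± 42.1) stood far above wild-type GV (2.68 ± 0.376), labelled Btg4-/- GV (2.04 ± 0.112) and zygote (1.64 ± 0.865), the remaining groups being below 1 FPKM. For Cd81 wild-type GV (4.28 ± 0.888) and labelled Btg4-/- GV (2.74 ± 0.728) stood above 6 groups that overlapped in sequence, from wild-type zygote (1.31 ± 0.0358) to wild-type MII (0.469 ± 0.467).

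In the Erk experiment, all 5 genes were higher in the MII library labelled Erk-/- than in its wild type. With 1 library per group there is no replicate check and no test. The wild-type MII library had 7265 symbols at 1 FPKM or more, the fewest of all libraries, and the labelled Erk-/- MII library had 8927. The part of this in the differences was not tested. Cd9 was at 101 FPKM in the labelled Erk-/- MII library and 9.34 in wild type, 10.8-fold. The deposited intervals, which cover counting error only, are 82.0 to 96.2 (below the value itself, as in other libraries) and 6.73 to 10.8. Folr4 was at 122 against 30.2 FPKM (4.04-fold) and Cd151 at 33.9 against 12.2 (2.78-fold). Cd63 was at 7.69 FPKM (interval 5.58 to 9.79) against 0.121 (0 to 0.594), and Cd81 at 4.76 (3.62 to 5.89) against 1.83 (1.18 to 2.49). On the log2(FPKM + 1) scale these are differences of 3.30, 1.98, 1.40, 2.95 and 1.02, all past 2-fold, where 30.7% of 11404 genes were past 2-fold higher and 8.08% lower (38.8% in either direction). The median of all genes was 0.26 in this comparison. With median-of-ratios scaling Cd151 and Cd81 stood at 0.90 and 0.64 and with quantile normalization at 0.87 and 0.24, which left 3 of 5 past 2-fold.

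**Figure D3:**
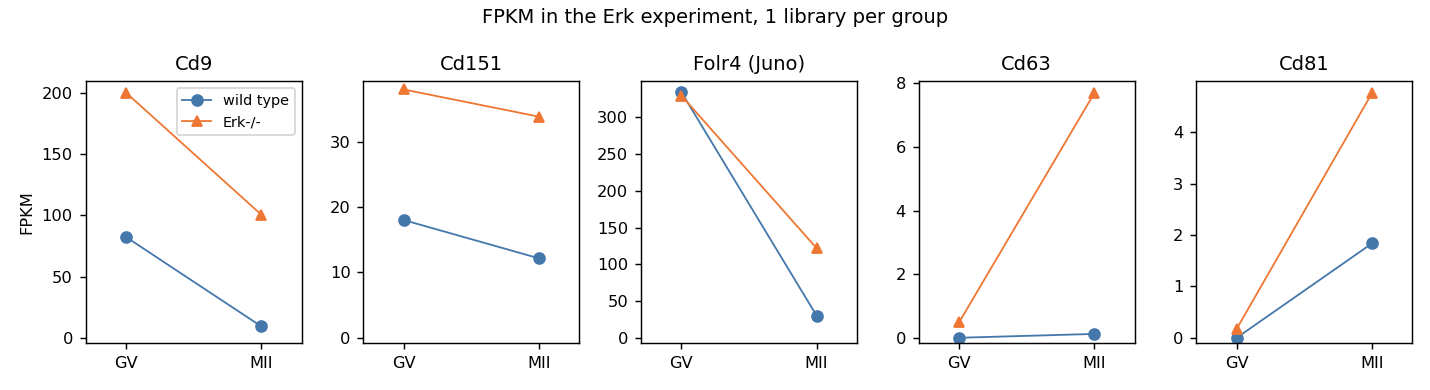
FPKM (vertical axis, linear, 1 scale per gene) of the 5 genes in the 4 libraries of the Erk experiment at GV and MII; circles are wild type and triangles labelled Erk-/-, 1 library each, joined by lines. At MII every gene is higher in the labelled Erk-/- library; at GV Folr4 is at 330 and 334 FPKM.

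At GV in the Erk experiment 2 of 5 genes, Cd9 and Cd151, were past 2-fold higher in the labelled Erk-/- library, against 18.7% of genes (42.2% in either direction). Cd9 was at 200 FPKM in the labelled Erk-/- library and 82.3 in wild type (log2 difference 1.27), and Cd151 at 38.0 against 18.0 (1.04). Folr4 was at 330 against 334 FPKM (-0.02, and 0.07 with median-of-ratios scaling). Cd63 and Cd81 were listed at 0 in wild type and stood at 0.483 and 0.173 in the labelled Erk-/- library, on at most 1.5 implied fragments. From GV to MII, Folr4 went from 334 to 30.2 FPKM in wild type and from 330 to 122 in the labelled Erk-/- pair (log2 -3.42 and -1.43). Cd9 went from 82.3 to 9.34 in wild type and from 200 to 101 in the labelled Erk-/- pair (-3.01 and -0.99). In wild type 1 gene (Cd81) was past 2-fold higher and 2 (Cd9 and Folr4) past 2-fold lower at MII, against 20.4% and 46.9% of genes (67.3% in either direction). In the labelled Erk-/- pair 2 (Cd81 and Cd63) were higher and 1 (Folr4) lower, against 23.9% and 33.4% (57.3% in either direction). The median of all genes was -0.76 in the wild-type step and -0.09 in the labelled Erk-/- step. The former ends in the library with the fewest symbols at 1 FPKM or more. Wild-type GV levels differed between the experiments: Cd9 was at 82.3 FPKM here against 232 and 191 in the Btg4 experiment, and Folr4 at 334 against 156 and 132. Some wild-type GV to MII steps ran opposite ways: Cd81 went from 0 to 1.83 FPKM here and from a mean of 4.28 to 0.469 there, and Btg4 from 216 to 2987 here and from 1450 and 1673 to 415 and 406 there.

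The 3 genes whose log2(FPKM + 1) followed each member most closely over the 16 Btg4 experiment libraries are given as a description, since libraries of a group share genotype, stage and preparation. For Cd9 they were C1qbp, a mitochondrial matrix protein gene (Pearson r = 0.96), Ube2b, a ubiquitin-conjugating enzyme gene (0.96), and the calmodulin gene Calm2 (0.95). Calm2 was at 698 FPKM on average in wild-type GV, 60.8 in wild-type MII and 998 in labelled Btg4-/- MII. For Cd151 they were Pccb, of propionyl-CoA carboxylase (0.98), 2810025M15Rik (0.96) and 1700030K09Rik (0.95). For Folr4 they were Cluap1 (0.93), the mitotic kinase gene Aurka (0.92) and Myo16 (0.92). Aurka stood at 162, 66.9, 146 and 66.3 FPKM over the 4 stages in wild type. For Cd63 they were Ppat, an enzyme of purine synthesis (0.98), Tmem129 (0.98) and Mgat2, of N-glycan synthesis (0.98). These resemble Cd63 mainly through wild-type 2-cell embryos, where Mgat2 was at 80.2 FPKM against 0.269 in labelled Btg4-/- 2-cell. For Cd81 they were Gmppa (0.95), Zbtb2 (0.90) and the checkpoint gene Hus1 (0.90). Among the members themselves r over these libraries ran from -0.46 (Cd63 and Cd151) to 0.57 (Cd81 and Folr4).

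Other genes of these families were followed by lists chosen from knowledge of the protein families, with earlier results of these data known. Of 27 other tetraspanins 17 were tested. Cd9 was exceeded only by Tspan14 among them in wild-type GV, MII and zygote (226, 211 and 139 FPKM for Tspan14), and by none in wild-type 2-cell. Between genotypes, 0 of the 17 were higher and 1 lower at GV, beside 1.45% and 6.46% of all genes. The gene called lower was Tspan14 (147 against 226 FPKM on average, log2 -0.61, adjusted p = 0.038). At MII the list had 5 of 17 called higher and 1 lower, beside 29.1% and 23.3% of all genes, and 5 and 0 at the zygote stage, beside 24.4% and 23.3%. Tspan33, a partner of the protease ADAM10, was at 97.8 and 78.4 FPKM in labelled Btg4-/- MII against 7.57 and 12.6 in wild type (log2 3.04, adjusted p = 5.95e-07), and Tspan31 at 18.8 and 23.3 against 3.81 and 3.02 (2.32, adjusted p = 3.23e-05). At 2-cell 4 were higher and 3 lower, beside 22.6% and 26.4% of all genes. The list medians over the 4 stages were -0.19, 0.27, 0.33 and -0.18, those of all genes -0.12, 0.09, 0.0065 and -0.05. Of the 17, 3 passed the filter through 1 group alone (Tspan7, Tspan15 and Rom1), so these counts are descriptions. Tspan4 was listed at 0 in both labelled Btg4-/- 2-cell libraries and stood at 8.95 and 10.5 FPKM in wild type (adjusted p = 3.86e-05).

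Of 25 partners and integrins 13 were tested. At GV 0 were higher and 1 lower, Igsf3 (log2 -0.96, adjusted p = 0.0145), beside 1.45% and 6.46% of all genes. The counts were 3 higher and 5 lower at MII, beside 29.1% and 23.3% of all genes. At the zygote stage they were 2 and 5, beside 24.4% and 23.3%, and at 2-cell 2 and 7, beside 22.6% and 26.4%. The list medians from GV on were -0.23, -0.19, -0.19 and -0.66. Of the 13, Itgav, Epcam and Icam1 passed the filter through wild-type 2-cell alone, which fixes their direction at that stage. The counts and medians of this list are therefore descriptions. Igsf8, whose product is a direct partner of CD9 and CD81 on the egg, was at 11.6 and 9.27 FPKM in labelled Btg4-/- MII against 1.43 and 3.17 (log2 1.84, adjusted p = 0.000911) and was higher in the zygote as well (1.77, adjusted p = 0.00144). Bsg, which encodes the immunoglobulin-family protein basigin, was at 211 and 193 FPKM against 25.4 and 20.3 at MII (3.10, adjusted p = 9.01e-09). Of the integrin genes, Itga6 was lower in labelled Btg4-/- MII, 6.34 and 14.6 against 26.9 and 35.7 FPKM (-1.58, adjusted p = 0.000877), and in the zygote, 12.1 and 13.1 against 49.8 and 57.9 (-2.01, adjusted p = 0.000172). Itgb1, the common beta subunit, was at 6.96 and 4.86 against 22.1 and 24.4 FPKM in the zygote (-1.82, adjusted p = 0.00318). At 2-cell the adhesion gene Epcam was at 0.293 and 0 against 12.7 and 24.5 FPKM, a description only since that filter route fixes its direction, while Itga9 was higher, 64.4 and 66.5 against 24.5 and 21.6 (1.47, adjusted p = 1.52e-06).

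**Figure D4:**
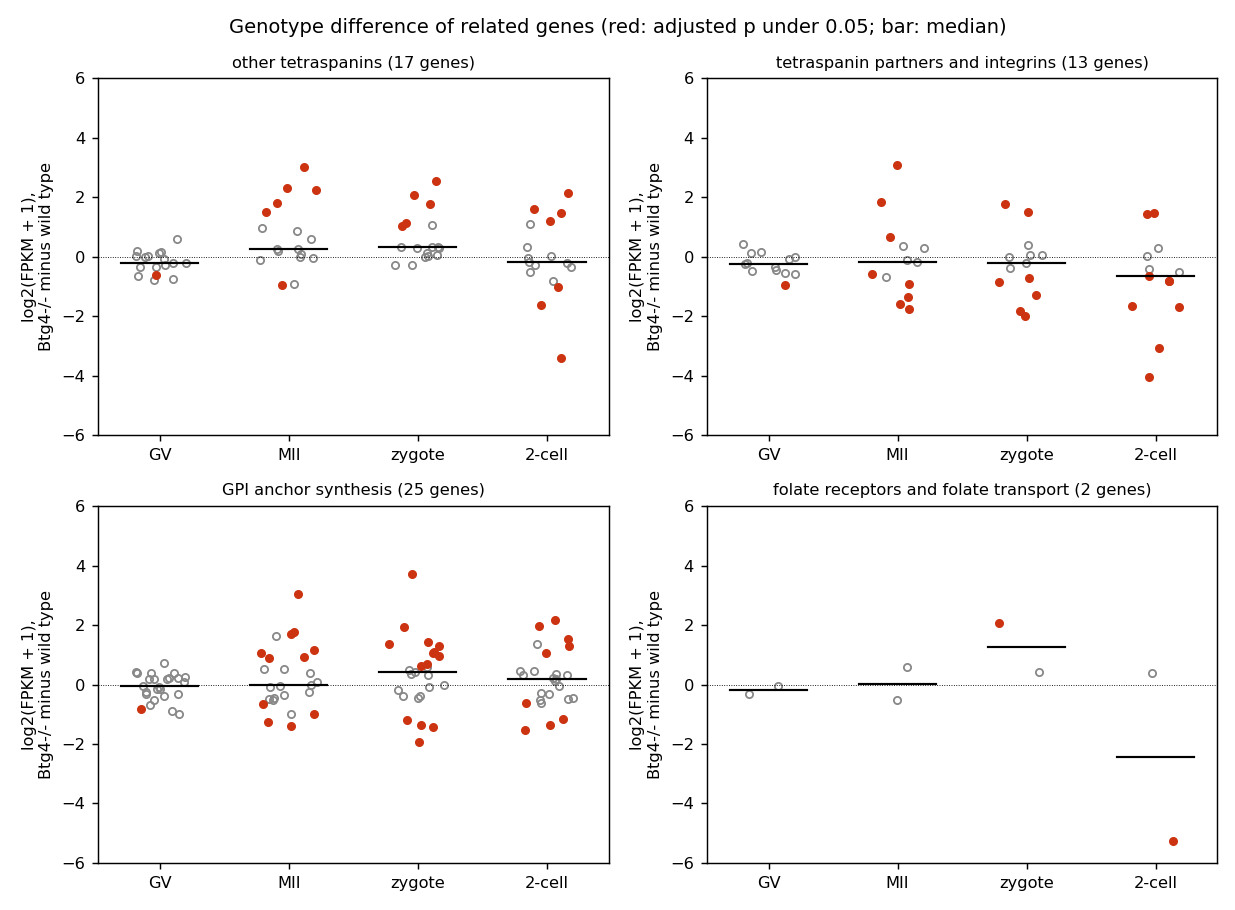
Difference in log2(FPKM + 1), labelled Btg4-/- minus wild type (vertical axis), at each stage for the tested genes of 4 lists; each point is 1 gene, red with an adjusted p under 0.05, and bars are list medians. At GV 1 of 17 other tetraspanins is red, and at MII 6 are. Genes that passed the filter through 1 group alone are included.

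Of the genes that make the GPI anchor, by which Juno is held in the membrane, 25 of 28 were tested. At GV 0 were higher and 1 lower, beside 1.45% and 6.46% of all genes, and at MII 7 and 4, beside 29.1% and 23.3%. In the zygote the counts were 10 and 4, beside 24.4% and 23.3%, and at 2-cell 5 and 4, beside 22.6% and 26.4%. Pigg and Pgap1 passed the filter through 1 group alone, so these counts are descriptions. The list medians were -0.05, -0.0022, 0.43 and 0.20. Pigc was at 32.4 and 30.7 FPKM in labelled Btg4-/- MII against 3.40 and 2.46 (log2 3.06, adjusted p = 6.01e-08), and Piga, of the enzyme of the first step, at 5.01 and 4.64 against 14.4 and 11.5 (-1.26, adjusted p = 9.75e-05). Pigf was lower in labelled Btg4-/- zygotes, 33.7 and 33.9 against 142 and 123 FPKM (-1.93, adjusted p = 8.41e-07), and higher at 2-cell, 656 and 587 against 167 and 113 (2.17, adjusted p = 2.79e-07). Of 4 genes of folate uptake 2 were tested. Folr1, the folate receptor that lies in the same family as Folr4, was listed at 0 in both labelled Btg4-/- 2-cell libraries and stood at 36.0 and 38.6 FPKM in wild type, the 1 group through which it passed the filter, so that no test is given.

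Markers of other cells that can come with oocytes were measured beside these results. The 13 granulosa and cumulus markers summed to 76.2 to 86.1 FPKM in wild-type GV and 86.4 to 86.5 in labelled Btg4-/- GV libraries, and to 7.52 to 13.8 against 5.07 to 5.13 at MII. The 7 blood markers summed to 50.3 to 85.0 FPKM in wild-type MII and 1.02 to 2.08 in labelled Btg4-/- MII. Among them Hba-a1 was at 66.1 and 44.5 FPKM in wild-type MII and 1.15 and 0 in labelled Btg4-/- MII. Ptprc was at 0 in all 4 libraries. The 11 sperm markers measured summed to 44.6 to 50.7 FPKM in wild-type zygotes and 18.2 to 20.6 in labelled Btg4-/- zygotes, and already to 52.4 to 61.5 and 32.8 to 33.6 in the unfertilized MII eggs. Most of these zygote sums is Spa17 (43.7 and 40.2 against 17.1 and 14.2 FPKM). Prm2 was at 6.99 and 4.38 FPKM in wild-type zygotes and 3.52 and 4.01 in labelled Btg4-/- zygotes. It also read 1.90 to 13.6 FPKM in the GV libraries. Prm1, Tnp1 and Acr were at 0 in all 20 libraries. Cd9, Cd151 and Folr4 were higher in the labelled Btg4-/- MII libraries, where both the granulosa and the blood sums were lower; the part of such cells in the results was not tested.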

How the data were processed

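RNA-seq libraries of pooled mouse oocytes or embryos (16 in the Btg4 experiment, 4 in the Erk experiment) were analysed from gene-level FPKM values and intervals that the authors deposited. CASAVA 1.8, TopHat, Cufflinks and mm9 are named in the submitters' processing notes. TopHat and Cufflinks versions and the gene annotation: not given in the sources used here. Per the labels' protocols mRNA was purified before library preparation, by a step they do not describe; if by poly(A) tail, FPKM can follow tail length as well as amount.

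Loci sharing a symbol were summed (260 symbols). Genes with a group mean of at least 1 FPKM were tested in R 4.3.3 by limma 3.58.1, on log2 of FPKM + 1 (group means over 16 libraries, 8 residual degrees of freedom, trended moderation, two-sided, Benjamini-Hochberg, threshold 0.05); all 5 members passed this filter, Cd81 through both GV groups and wild-type zygote and 2-cell, and Cd63 through both GV groups, labelled Btg4-/- zygote and wild-type 2-cell. The fit was tested on simulated data. Implied fragments are the squared ratio of each interval's midpoint to its SD, the interval taken as 4 SDs wide (from the value and its upper arm where the interval is cut at 0). Replicates differed by 2.44 to 6.18 times the squared difference that counting predicts, so none was treated as a duplicate. The members and lists were chosen with earlier results of these data known. Named genes are all members, the 3 nearest by Pearson r, and up to 2 called genes per list and direction. A gene of the label check and a sequence element are not reported here. Alternatives were other pseudocounts, filters and scalings, a replicate block, fits on the compared groups alone and leaving out each library.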

Additional observations from a re-analysis of the deposited data

Results flagged for a closer look

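In 5 cases a gene's stage step differed between genotypes by the test of that difference in limma. From GV to MII these were Cd9 (3.20 on the log2 scale, labelled Btg4-/- minus wild type, adjusted p = 4.61e-05), Cd151 (1.56, adjusted p = 0.000285) and Folr4 (0.95, adjusted p = 0.00558). From MII to zygote it was Folr4 (-1.34, adjusted p = 0.00322), and from zygote to 2-cell Cd63 (-8.52, adjusted p = 7.13e-09). The Folr4 difference from GV to MII missed the threshold with quantile normalization (0.50, adjusted p = 0.0611); the other 4 passed in all 18 alternatives each.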

How the results depend on the processing

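Of 957 tested member values under alternatives, 864 kept direction and side of the threshold, 42 lost and 20 gained a call and 31 changed sign. The interval midpoint and the scaling of each library to a common summed FPKM were chosen after seeing the data. Counts of members called that moved by more than 1.5 times, or from 0, were these. Without a filter they were 1 for wild-type MII to zygote (2 as reported) and 3 for labelled Btg4-/- GV to MII (5). With the compared groups alone they were 2 for wild-type zygote to 2-cell (4) and 3 for labelled Btg4-/- GV to MII. With quantile normalization, and with the common sum, they were 1 for labelled Btg4-/- MII to zygote (0) and 3 for the genotype difference in the step zygote to 2-cell (1). In the Erk experiment, 4 were past 2-fold at GV with a pseudocount of 0.1 (2), and 3 at MII with median-of-ratios or quantile scaling (5). Smaller moves over all settings left 3 to 4 called between genotypes at MII, 2 to 4 in the zygote and 3 to 4 at 2-cell, and 3 to 5 from GV to MII in wild type. Leaving out 1 library gave 1 to 2 for wild-type MII to zygote, 2 to 3 for labelled Btg4-/- GV to MII, and 1 to 2 for the genotype difference in each of the steps MII to zygote and zygote to 2-cell.

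None of the 31 tested values that changed sign was called as reported; the cause was not tested. Beside these, the untested Folr4 difference at GV in the Erk experiment (-0.02) became 0.07 (median-of-ratios), 0.05 (quantile) and 0.09 (common sum). For Cd81, the 2-cell genotype difference became 0.73 with a pseudocount of 0.1 and 0.15 with quantile normalization, labelled Btg4-/- MII to zygote became -0.030 (median-of-ratios) and -0.055 (quantile), and labelled Btg4-/- zygote to 2-cell -0.011 (common sum). For Cd9, labelled Btg4-/- MII to zygote became 0.096 (quantile) and 0.0042 (sum). For Cd151 that step became 0.018 and 0.058, wild-type MII to zygote 0.036 (sum), and the genotype difference in the step MII to zygote 0.21 (quantile) and 0.0215 (sum). For Cd63 the latter became -0.69 with a pseudocount of 0.1. With 1 library left out, Cd81 ran from -0.16 to 0.50 between genotypes at MII, -0.85 to 0.77 at 2-cell, -1.21 to 0.41 in wild-type zygote to 2-cell, -0.21 to 0.31 in labelled Btg4-/- MII to zygote -0.23 to 0.30 in the next step, and -0.37 to 1.24 in the genotype difference of the step zygote to 2-cell. Folr4 ran from -0.17 to 0.0071 between zygotes, Cd151 from -0.28 to 0.19 in wild-type MII to zygote and -0.32 to 0.15 in the genotype difference of that step, and Cd63 from -0.011 to 0.67 in the latter.

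Same-numbered libraries did not deviate together (r of deviations -0.015 to 0.13 over 28 group pairs, 2 over 0.1), so replicate numbers were not taken to pair them. With the replicate block 4 members were called at MII, 3 in the zygote and 4 at 2-cell, as without it. A filter at 5 FPKM leaves Cd81 untested. Implied fragments, at a median of 7.1 for Cd81 and 1.45 for Cd63, limit what can be seen of these 2 genes.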
